A study of Mus musculus with 4 samples.

Results

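The Reg genes encode a family of small secreted lectins, and 6 of them were followed here in sorted cells of the mouse colon: Reg1, Reg2, Reg3a, Reg3b, Reg3g and Reg4. They were chosen by name. Every probe for a gene, as opposed to a control, whose gene name on the array was 1 of the 6 was taken. They are 6 of 27827 gene names on the array, and each had 1 probe, printed at 1 of 43379 gene spots.

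Reg proteins carry a single C-type lectin-like domain and are released by epithelial cells of the gut and by the exocrine pancreas. Reg3b and Reg3g are antibacterial: Reg3g binds peptidoglycan and kills Gram-positive bacteria, Reg3b also acts on Gram-negative ones, and both are known to be induced through microbial sensing and through interleukin 22 and STAT3. Reg1 was first found in regenerating pancreatic islets, and Reg4 is known in the colon as a marker of deep crypt secretory cells, the goblet-like cells that sit between Lgr5 stem cells at the crypt base. Reg4 is also known from enteroendocrine cells, the hormone-making cells of the gut.

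The comparison was of colonic crypt cells of adult Lgr5-EGFP-IRES-CreERT2 knock-in mice, in which GFP is driven from the Lgr5 locus, and asked how cells sorted as GFP-positive differ from cells sorted with an antibody as CD24-high (CD24hi), which the study used to obtain a subset of goblet cells. For each channel 300 ng of total RNA was labelled, and each 2-colour array took both RNAs. There were 4 arrays in 2 replicates, each a first array with the RNA labelled Lgr5-GFP in the dye Cy3 and a dye swap with it in Cy5. A replicate and its slide cannot be told apart, since each slide held 1 replicate. The labels do not name separate animals, so a p-value here reflects the spread of these samples alone, and that spread may be technical. Ratios are log2 of the RNA labelled Lgr5-GFP over the RNA labelled CD24hi, so positive values are higher in the former.

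Both sort markers ran against the labels in the RNA labelled Lgr5-GFP. The stem cell receptor Lgr5 was lower there, with a log2 ratio of -3.41 ± 0.29 (SD, n = 2; limma, adjusted p = 5.94e-04), while Cd24a, which encodes CD24, was higher at 2.12 ± 0.30 (SD, n = 2; limma, adjusted p = 7.47e-04). Directions are therefore given by label throughout, and whether the labels of the RNAs were exchanged was not tested. The dye swap of replicate 1 also stood apart. On it the scanner software marked 75.3% of gene spots as outliers, against 0.231% to 0.512% on the other 3 arrays, and marked spots were left out. Its median signal was 4377 for the RNA labelled Lgr5-GFP and 1358 for that labelled CD24hi, against 94.2 to 197 on the others. The Lgr5 spot was marked on it, so replicate 1 of Lgr5 rested on 1 array and was not dye-balanced. Another Lgr5 probe was not well above background in either RNA on the other 3 arrays, with ratios of -0.13, 0.07 and 0.03. In bulk samples such as these, fewer cells of a type and less RNA per cell cannot be told apart.

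The probe of Reg4 carries the result that varied most, and it is the only one of the family away from chromosome 6. Its 60 bases match chr3:98037005-98040251 on the plus strand of mm9, the build of the array annotation. That span is 3247 bases, longer than the probe, so the probe joins sequence that is apart in the genome, as across an intron. It is shown whole, and the probes of the 3 other measured members by their first 30 bases, 5′ to 3′, with no letters singled out.
Reg4: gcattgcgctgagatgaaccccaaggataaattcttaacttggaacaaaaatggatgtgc
Reg1: ggaccatctatcaaaagcaaattagatcct
Reg3b: gtgaagactcacctagaaaaagcattttct
Reg3g: gagtacagaattgacatcatgggttgatat

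The other 5 probes lie together on chromosome 6 of mm9. Reg3b is at chr6:78323323-78323382, Reg3a at chr6:78333635-78333694, Reg2 at chr6:78357959-78358018 and Reg1 at chr6:78378527-78378586, all on the plus strand. Reg3g is at chr6:78416420-78416479 on the minus strand. In the RefSeq gene table (assembly GRCm38.p6, used for names and neighbours only) these genes follow each other as Reg3b, Reg3d, Reg3a, Reg2, Reg1, the pseudogene Gm52853 and Reg3g. Whether each probe lies in coding sequence or a UTR was not analysed here. No pair among the probes of the 6 genes and of Reg3d shared a run of more than 11 bases on either strand, and the most alike pair was identical at 27 of 60 bases at its best offset, so near-identical probe sequence was not seen within the family.

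A gene was tested if its probe was well above background, by the scanner software's own mark, on every array with a value in at least 1 of the 2 RNAs. This left 4 of the 6 members: Reg1, Reg3b, Reg3g and Reg4. Limma called 3 of them at an adjusted p under 0.05, with Reg3g and Reg4 at ratios above 0 and Reg1 at one below 0. Over all 14787 genes tested 47.3% were called, 21.7% as higher and 25.6% as lower, so a call by itself was common on these arrays. The median log2 ratio of all genes tested was -0.07.

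**Figure D1:**
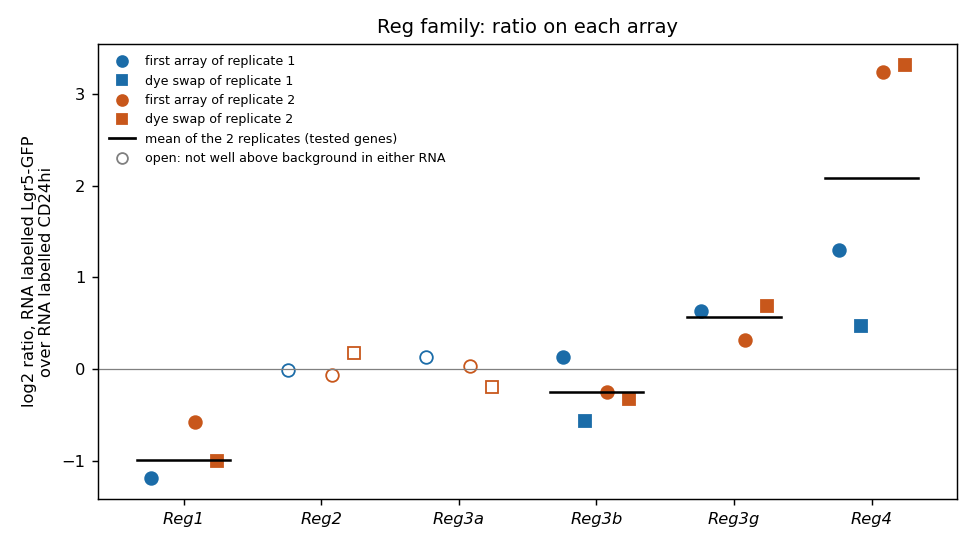
Log2 ratio (vertical axis) of each Reg gene on each array; circles are first arrays, squares dye swaps, blue replicate 1 and orange replicate 2, and the black line is the mean of the 2 replicates for the tested genes. The Reg4 points of replicate 2 lie at 3.24 and 3.32, those of replicate 1 at 1.30 and 0.47, and the other genes lie between -1.19 and 0.69.

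Reg4 was higher in the RNA labelled Lgr5-GFP on all 4 arrays. Its spot signal in that RNA against the RNA labelled CD24hi was 4980 against 3059 on the first array of replicate 1 and 14154 against 3598 on its dye swap. In replicate 2 it was 7485 against 1217 on the first array and 14188 against 1344 on the dye swap. The spot was well above background in both RNAs on every array and was marked on none. On the dye swap of replicate 1 being above background says little. Reg2 and Reg3a, not well above background on the other arrays, were so there, though their spots were marked. The normalized log2 level of Reg4 on that dye swap was 9.21 (label Lgr5-GFP) and 8.74 (label CD24hi). On the first array of replicate 1 these levels were 12.95 and 11.65.

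After normalization the log2 ratio of Reg4 was 1.30 on the first array of replicate 1, 0.47 on its dye swap, 3.24 on the first array of replicate 2 and 3.32 on its dye swap. The 2 arrays of replicate 2 were close to each other, and both lay above both arrays of replicate 1. The replicate ratios were 0.88 and 3.28, with a mean of 2.08 ± 1.69 (SD, n = 2), or 4.23-fold (limma, adjusted p = 0.0229). Reg4 was above 93.4% of genes on the first array of replicate 1 and 91% on its dye swap, and above 99.6% on each array of replicate 2. Without replicate 1 the ratio would be 3.28 and without replicate 2 it would be 0.88, each with no test. The call was lost under 4 alternative settings, with ratios of 1.61 to 2.08 and adjusted p of 0.0595 to 0.0930 in limma, as when genes were not filtered on dim signal (adjusted p = 0.0629).

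The gap between replicates was unusual for these arrays. Reg4 differed by 2.39 between replicates on the log2 scale, while the median absolute difference over all 14787 genes was 0.194. A larger difference was found for 3 other genes, Gcg, Pyy and Insl5, which are named here after their values were seen. All 3 encode hormones of colonic enteroendocrine L cells: glucagon-like peptides, peptide YY and insulin-like peptide 5. The log2 ratio of Gcg was -1.69 in replicate 1 and 2.01 in replicate 2, that of Pyy -0.94 and 2.48, and that of Insl5 -1.83 and 1.37, so these 3 changed sign between replicates and Reg4 did not.

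The gap was also present without the dye swap of replicate 1. Leaving that array out, Reg4 differed by 1.98 between replicates, and 7 other genes differed more. Setting only the 2 first arrays against each other, which share dye orientation, the difference was 1.94 and 8 other genes differed more. Pyy, Gcg and Insl5 were among them in both cases. The normalized log2 level of Reg4 in the RNA labelled Lgr5-GFP was 12.95 on the first array of replicate 1, and 14.27 and 14.41 on the arrays of replicate 2. In the RNA labelled CD24hi it was 11.65 on the first array of replicate 1, and 11.03 and 11.09 in replicate 2. Thus from replicate 1 to replicate 2 its level was higher in the former RNA and lower in the latter.

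**Figure D2:**
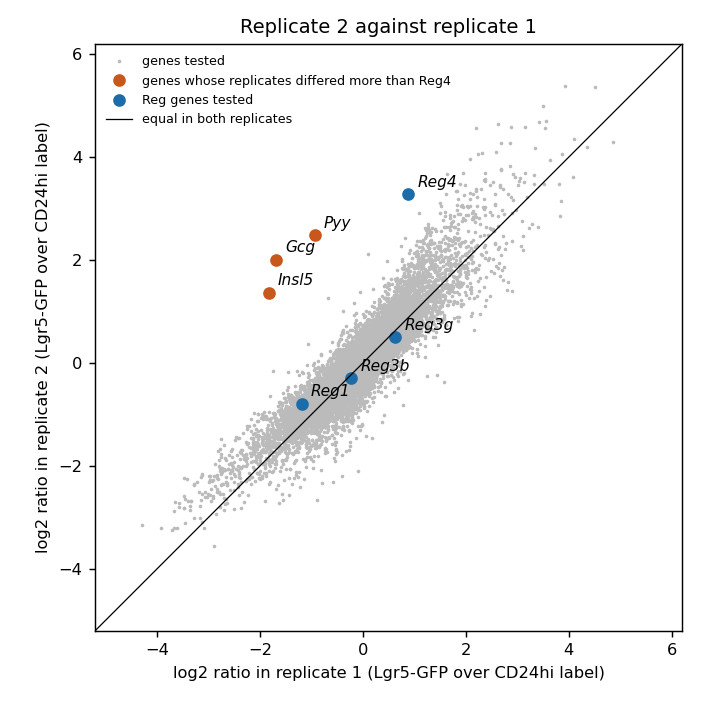
Log2 ratio of each of the 14787 tested genes in replicate 2 (vertical axis) against replicate 1 (horizontal axis), with the line of equal values; tested Reg genes are blue, and the 3 genes that differed more between replicates than Reg4 are orange. Reg1, Reg3b and Reg3g lie within the cloud of genes, while Reg4, at 0.88 and 3.28, lies above it beside the hormone genes Gcg, Pyy and Insl5.

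Markers of enteroendocrine cells, like Reg4, had higher ratios in replicate 2. Of 19 listed markers, 16 were tested. Beside 21.7% higher and 25.6% lower over all genes, 10 had called ratios above 0 and none was called lower (0 also at an unadjusted p under 0.05 in limma). Their ratios ran from -0.36 to 3.87 with a median of 0.90 (0.61 to 2.42 over the alternatives). Neurod1, Pax6 and Scg2 had no probe that passed the filter. All 16 had a higher ratio in replicate 2 than in replicate 1, with a median difference of 0.96, against 58.4% of all genes and a median difference of 0.06. Without the dye swap of replicate 1 this held for 14 of 16, with a median difference of 0.86. On the 3 arrays other than that dye swap, the summed linear level of 15 of these markers in the RNA labelled Lgr5-GFP was 211915 in replicate 1, and 164741 and 153175 in replicate 2. In the RNA labelled CD24hi it was 40955 in replicate 1, and 17449 and 14819 in replicate 2. The sum was thus lower in replicate 2 in both RNAs. It covers 15 of the 16 tested markers and, being linear, is weighted to the brightest, so it does not show how most of them moved. The part of enteroendocrine cells in the Reg4 result was not tested.

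The granin Chgb had a log2 ratio of 3.14 in replicate 1 and 4.59 in replicate 2 (mean 3.87 ± 1.02, SD, n = 2; limma, adjusted p = 9.95e-04). Its relative Chga was at 2.64 and 4.65 (limma, adjusted p = 0.00239), and Tph1, the enzyme that starts serotonin synthesis, at 2.09 and 3.97 (limma, adjusted p = 0.00340), with a mean of 1.11 for its other kept probe. All 3 thus had ratios above 0 in both replicates and the larger one in replicate 2, as Reg4 did. Among the markers not called, Pyy had the largest mean ratio, 0.77 ± 2.42 (SD, n = 2; limma, adjusted p = 0.431).

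Markers of deep crypt secretory and goblet cells other than Reg4 were mostly higher in the RNA labelled Lgr5-GFP. Of 18 listed, all 18 were tested. Beside 21.7% higher and 25.6% lower over all genes, 15 were higher and none was called lower (2 at an unadjusted p under 0.05 in limma). The median log2 ratio was 2.34, beside 2.08 for Reg4. The gel-forming mucin Muc2 was at 3.76 ± 0.58, the coatomer subunit gene Copz2 at 3.51 ± 0.03 and the disulphide isomerase Agr2 at 3.34 ± 0.69 (SD, n = 2; limma, adjusted p = 6.14e-04, 5.94e-04 and 7.48e-04). The trefoil peptide gene Tff3 had -0.95 ± 1.13 (SD, n = 2; limma, adjusted p = 0.0784), from replicate ratios of -1.75 and -0.16. Of markers named here besides, Dll1 at -0.49 and Tgfa at 0.01 were not called (limma, adjusted p = 0.0583 and 0.955). Dll4 and Egf were higher, at 0.70 and 2.23.

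These secretory markers differed less between replicates than Reg4 did. Replicate 2 had the higher ratio for 16 of 18, with a median difference of 0.67, but against the first array of replicate 1 alone it was 13 of 18, with a median of 0.10. Over the same 3 arrays the summed linear level of 17 of them in the RNA labelled Lgr5-GFP was 928586 in replicate 1, and 916626 and 609268 in replicate 2. In the RNA labelled CD24hi it was 134328 in replicate 1, and 77483 and 61532 in replicate 2. Markers of tuft cells, the chemosensory cells of the epithelium, went the other way: 7 of 10 were tested, all 7 had called ratios above 0 (median 1.88), and all 7 had a lower ratio in replicate 2, with a median difference of -0.97. Over all genes 21.7% were called higher. None of the 7 tuft markers had a value on the dye swap of replicate 1, and 4 of them were well above background in both RNAs, with a median of 1.26. Over the alternatives the median ran from 1.26 to 4.10. Dclk1, a kinase used to mark them, was at 2.54 in replicate 1 and 2.01 in replicate 2, and its other kept probes gave mean ratios of 0.75 to 1.19. The summed level of the 7 in the RNA labelled Lgr5-GFP was 6409 in replicate 1, and 4077 and 4374 in replicate 2. In the RNA labelled CD24hi it was 1486 in replicate 1, and 1805 and 1636 in replicate 2.

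**Figure D3:**
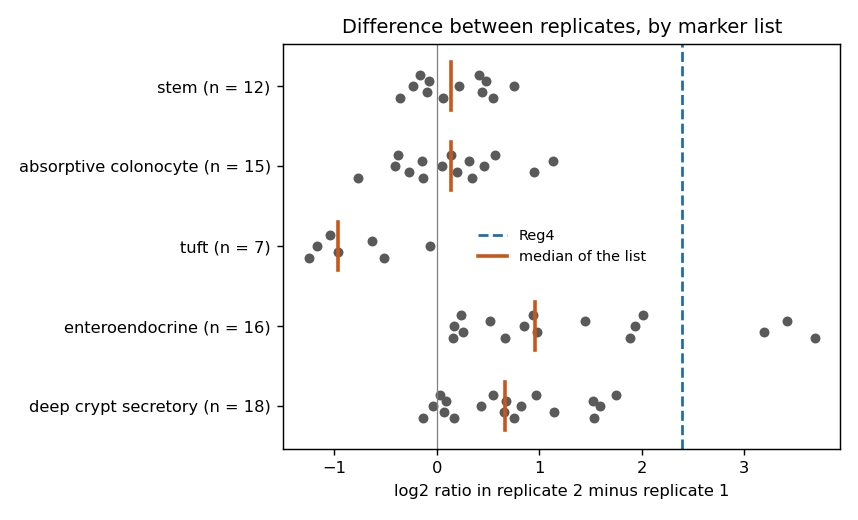
Log2 ratio in replicate 2 minus replicate 1 (horizontal axis) for each tested gene of 5 marker lists (rows; points are genes, shifted vertically for sight, and the orange bar is the list's median). The dashed line marks Reg4 at 2.39, to the right of every deep crypt secretory marker, with only Gcg, Pyy and Insl5 of the enteroendocrine list beyond it and all 7 tuft markers below 0.

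The genes whose array ratios were most like those of Reg4 were sought over all 4 arrays among 5640 genes with a value on each. Likeness was the root mean square difference from Reg4 over the arrays, in log2 units. The nearest was Pdia5, a disulphide isomerase gene of the endoplasmic reticulum, at 0.318, with replicate ratios of 1.09 and 2.91. The next were Mptx1 at 0.517, Kif26a at 0.557, Cbfa2t3 at 0.567 and Sval1 at 0.586. Another kept probe of Kif26a had a mean ratio of 0.08 and was not called. All 5 had a mean ratio above 0 and a higher one in replicate 2, which follows from choosing them for likeness to Reg4.

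The antibacterial lectins of the family were well above background in both RNAs and differed little between them. The spot signal of Reg3g in the RNA labelled Lgr5-GFP against that labelled CD24hi was 2318 against 2282 on the first array of replicate 1, 847 against 1039 on the first array of replicate 2 and 1987 against 1176 on its dye swap. Its spot on the dye swap of replicate 1, at 16737 against 4411, was marked and left out. The log2 ratios were 0.63, 0.32 and 0.69 on the 3 arrays with a value, so all 3 were above 0.

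The mean for Reg3g was 0.57 ± 0.09 (SD, n = 2), or 1.48-fold, with replicate ratios of 0.63 and 0.50 (limma, adjusted p = 0.0145). Its difference between replicates, 0.130 in size, was matched or exceeded by 64.8% of genes. With the dye swap of replicate 1 left out, replicate 1 of Reg3g rested on 1 array and was not dye-balanced. The call was lost under 5 alternative settings (adjusted p of 0.0522 to 0.109 in limma), and centring each array on its median in place of loess gave 0.33, where the median of all genes moved to -0.25.

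Reg3b, which sits at the other end of the same cluster, gave no call. Its spot signal in the RNA labelled Lgr5-GFP against that labelled CD24hi was 5433 against 7429 on the first array of replicate 1 and 11842 against 5975 on its dye swap. In replicate 2 it was 2073 against 3596 and then 5772 against 6588. The log2 ratios were 0.13, -0.57, -0.25 and -0.32, so the sign differed between the arrays of replicate 1. The mean was -0.25 ± 0.05 (SD, n = 2; limma, adjusted p = 0.142). The adjusted p stayed between 0.0760 and 0.647 under every alternative run, with ratios of -0.43 to -0.08. The small SD between replicates hides a gap of 0.70 between the arrays of replicate 1.

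**Figure D4:**
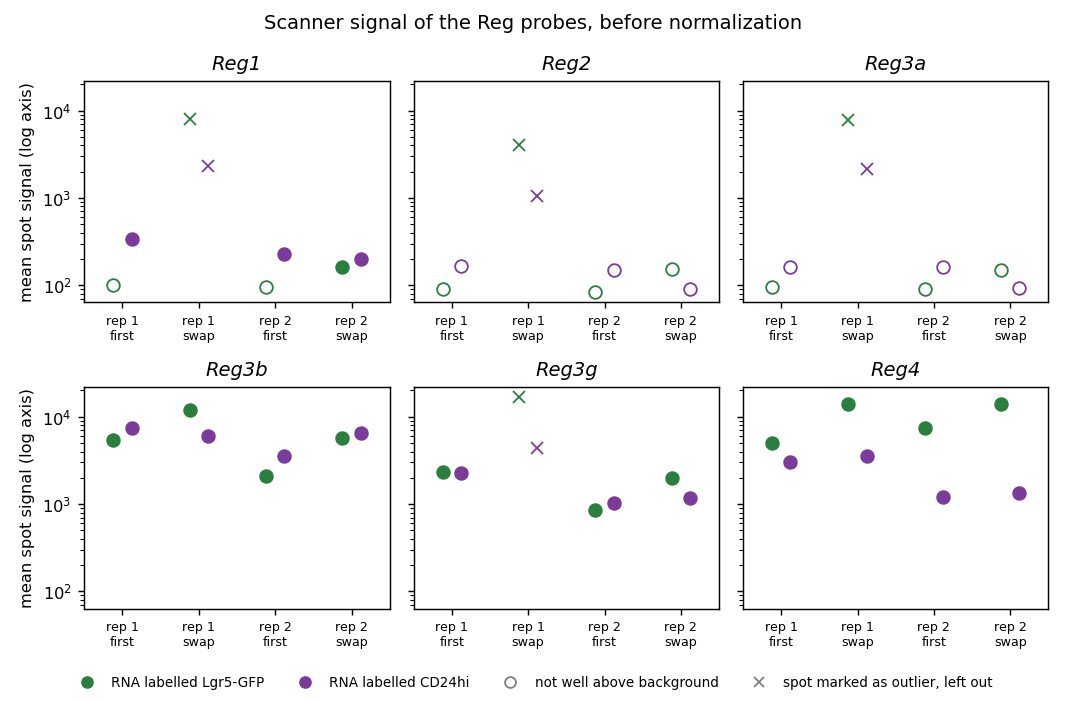
Mean spot signal before normalization (vertical log axis, arbitrary scanner units) of each Reg probe on each array, green for the RNA labelled Lgr5-GFP and purple for that labelled CD24hi; open points were not well above background and crosses are spots left out as outliers. Reg3b, Reg3g and Reg4 were bright on every array, whereas Reg2 and Reg3a rose above background only in the marked spots of the dye swap of replicate 1.

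Reg1 lay near background, and its ratio was below 0. Its spot signal in the RNA labelled Lgr5-GFP against that labelled CD24hi was 101 against 340 on the first array of replicate 1, 94.5 against 229 on the first array of replicate 2 and 162 against 202 on its dye swap, where the dyes differ in background. In the RNA labelled CD24hi it was well above background on all 3 of these arrays, and in the other RNA only on the dye swap of replicate 2. Its spot on the dye swap of replicate 1 was marked, with signals of 8036 and 2304.

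The log2 ratios of Reg1 were -1.19, -0.57 and -1.003 on the 3 arrays with a value, all below 0. Their mean over replicates was -0.99 ± 0.28 (SD, n = 2), from replicate ratios of -1.19 and -0.79 (limma, adjusted p = 0.00426). As for Reg3g, replicate 1 rested on 1 array and was not dye-balanced. Reg1 passed the filter through the RNA labelled CD24hi, where it is higher, so its call is not independent of the filter. With no filter the adjusted p was 0.00732 in limma. In replicate 1 the RNA labelled Lgr5-GFP gave no signal well above background, so the fold is not given. The size depended on how background was handled. With the software's processed signals, which subtract background without the added offset of 50, it was -2.73, and with the deposited series table -2.74, while with no background subtraction it was -0.72. The call was lost when normexp was fitted with all spots (-0.85; limma, adjusted p = 0.0954), a setting under which 0 of 14787 genes were called and 5335 had an unadjusted p under 0.05.

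Reg2 and Reg3a were not measured above background. On the 3 arrays other than the dye swap of replicate 1, signals were 82.7 to 166 for Reg2 and 90.4 to 162 for Reg3a, with no spot well above background in either RNA. On that dye swap they read 3998 and 1055 for Reg2 and 7779 and 2153 for Reg3a, in the RNAs labelled Lgr5-GFP and CD24hi, and both spots were marked. Without the filter on dim probes their log2 ratios were 0.02 ± 0.05 and 0.03 ± 0.15 (SD, n = 2; limma, adjusted p = 0.911 and 0.906), which describe background rather than expression. Reg3d, a gene of the same cluster outside the 6, likewise had no unmarked spot well above background.

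**Figure D5:**
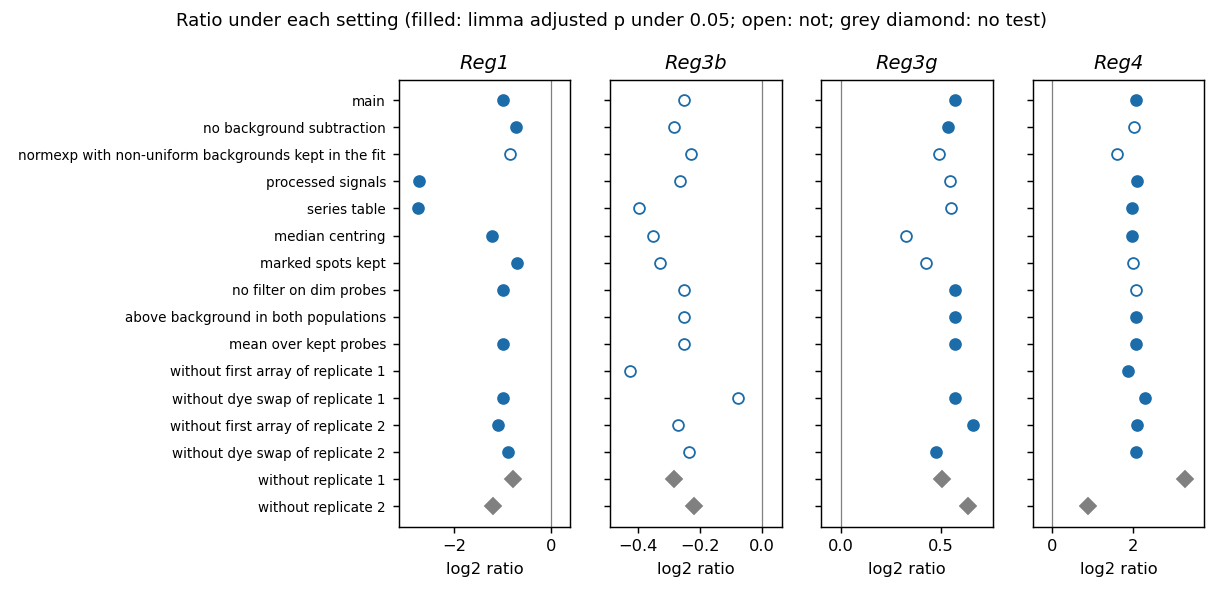
Log2 ratio (horizontal axes, a different scale in each panel) of the 4 tested Reg genes under the main processing and each alternative (rows); filled points had a limma adjusted p under 0.05. Grey diamonds leave out a whole replicate and have no test. Reg1 runs from -2.74 to -0.70, Reg3b from -0.43 to -0.08 with no filled point and Reg3g from 0.33 to 0.66, while Reg4 runs from 1.61 to 2.29 with both replicates and is at 3.28 without replicate 1 and 0.88 without replicate 2.

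The genes nearest to the other members in array ratios were also listed, over the 3 arrays with a value for Reg1 and Reg3g (14759 genes) and all 4 for Reg3b (5640 genes). For Reg1 they were Ldb3, Rfx7, Egfl7, Sclt1 and Gm2a, with root mean square differences of 0.0404 to 0.0694. For Reg3g they were Mapk9, Prkca, Metrnl, AW112010 and Runx1t1, at 0.0375 to 0.0575. For Reg3b they were Cox7a2l, Cnnm4, LOC638803, Nadsyn1 and Klhdc3, at 0.0333 to 0.0754. Distances of different members were taken over different arrays and genes and are not compared. Another kept probe of Ldb3, Gm2a and Mapk9 was not called. For Cnnm4 the probe used was at -0.21 and not called, while another kept probe was called at 0.44 (limma, adjusted p = 0.0273).

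Genes of the pathways that are known to induce the Reg3 lectins were also counted. Of 17 genes of the interleukin 22, interleukin 6 and STAT3 axis, 12 were tested, while Il22, Il6, Il22ra2, Osmr and Lifr did not pass the filter. Beside 21.7% higher and 25.6% lower over all genes, 7 had called ratios above 0 and none was called lower (1 at an unadjusted p under 0.05 in limma). Of receptor genes named here besides, Il10rb and Il6st were called higher, at 0.87 and 0.45. Il22ra1 and Il6ra, at 0.10 and 0.29, were not called. The median of the list was 0.49. Pias3, an inhibitor of STAT3, was at 1.37 ± 0.18, the kinase gene Tyk2 at 1.22 ± 0.02 and the receptor gene Il11ra1 at 0.92 ± 0.20 (SD, n = 2; limma, adjusted p = 0.00131, 0.00139 and 0.00397). Socs3, a feedback inhibitor that STAT3 induces, was at -0.48 ± 0.49 (SD, n = 2; limma, adjusted p = 0.0914). The list mixes activators with inhibitors such as Pias3 and Socs3, so its median does not give the activity of the pathway.

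Of 18 Toll-like and NOD receptors and their adaptors, all 18 were tested, 4 were higher, 4 were lower and the median was 0.09. The lipopeptide receptor gene Tlr2 was at -1.22 ± 0.03, its partner Tlr6 at 0.97 ± 0.18 and the adaptor gene Ticam1 at 0.88 ± 0.32 (SD, n = 2; limma, adjusted p = 0.00139, 0.00331 and 0.00704). Tlr4, the receptor of lipopolysaccharide, was at 0.34 ± 0.16 (SD, n = 2; limma, adjusted p = 0.0798). The 4 of 18 in each direction stand beside 21.7% higher and 25.6% lower over all genes.

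Of 4 proteins proposed as Reg receptors, 3 were tested. Egfr, the receptor of epidermal growth factor, was higher at 0.74 ± 0.07, and the hyaluronan receptor gene Cd44 was lower at -1.26 ± 0.01 (SD, n = 2; limma, adjusted p = 0.00588 and 0.00127). Another kept probe of Cd44 gave -0.16 (limma, adjusted p = 0.316), and the other kept probes of Egfr gave 0.55 to 2.13. Extl3, first described as a receptor of Reg1, was at -0.02 ± 0.28 (SD, n = 2; limma, adjusted p = 0.915). The probes of Gpr37, proposed for Reg4, did not pass the filter.

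Other secreted or surface lectins of the gut were mixed as the Reg family was. Of 16 listed, 10 were tested, 5 were higher and 3 lower, with a median of 0.41. Over all genes 21.7% were higher and 25.6% lower. The intelectin gene Itln1 was at 1.86 ± 0.57, the galectin gene Lgals1 at -1.53 ± 0.29 and the C-type lectin gene Clec2d at 1.43 ± 0.32 (SD, n = 2; limma, adjusted p = 0.00193, 0.00132 and 0.00174). Zg16, a goblet cell lectin that binds Gram-positive bacteria, was at 0.30 ± 0.71 (SD, n = 2; limma, adjusted p = 0.356).

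Of 18 other antimicrobial proteins of epithelium, 10 were tested, 6 were higher and 1 lower, with a median of 0.57. Over all genes 21.7% were higher and 25.6% lower. Retnlb, a goblet cell protein that kills bacteria, had the largest ratio of the list at 4.05 ± 0.88, the angiogenin gene Ang4 was at 1.84 ± 0.12 and the phospholipase gene Pla2g2a at 1.43 ± 0.34 (SD, n = 2; limma, adjusted p = 7.49e-04, 7.20e-04 and 0.00185). Pigr, which carries antibodies across the epithelium, was at -0.32 ± 0.41 (SD, n = 2; limma, adjusted p = 0.185). Reg3g, at 0.57, thus sat at the median of this list, and Reg4 above it.

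Markers of other cells that the sorts could hold were counted for the same comparison, beside 21.7% higher and 25.6% lower over all genes. Of 12 stem cell markers tested, 9 were lower in the RNA labelled Lgr5-GFP, among them Smoc2 at -2.78 ± 0.39 and Cdca7 at -2.43 ± 0.11 (SD, n = 2), 1 was higher, and the median was -1.09. Of 15 markers of absorptive colonocytes, 6 were higher and none was called lower, nor at an unadjusted p under 0.05 (median 0.24), with Guca2a at 3.05 and Slc26a3, not called, at -0.49. Another kept probe of Slc26a3 was called in the other direction, at 0.47 (limma, adjusted p = 0.0377). Of leucocyte markers 6 of 14 were tested and 2 were lower, Cd74 at -1.36 and Cd14 at -0.40, while Ptprc, Cd79a and Itgam did not pass the filter. Of stromal markers 4 of 11 were tested and 2 were higher, Tagln at 0.57 and Col1a2 at 0.44, while Col1a1 and Dcn did not pass. Since Reg1 is also made by the exocrine pancreas, 14 genes of acinar cells were listed, of which 12 were on the array and 5 were tested. Clps was higher at 4.13, Rnase1 and Cela1 were lower at -1.14 and -0.39, and Cpa1, Cpb1 and Pnlip did not pass the filter. The part of these cells in the Reg results was not tested.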

How the data were processed

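Arrays were scanned and read with Feature Extraction 10.5.1.1, per the file headers. The deposited intensity values were each spot's mean signal and median local background, and a further set that the software had background-subtracted and dye-normalized. The deposited log10 ratio set red over green in the latter set, and the deposited series table held log2 ratios of red over green (r of 0.923 to 0.986 with each array's log10 ratio), with a normalization not given in the sources used here.

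Background was corrected with limma 3.58.1 (R 4.3.3; normexp, offset 50, fitted without spots of non-uniform background), then loess was applied within arrays. Control spots and spots marked as outliers were left out, which removed 9137 of 14787 genes from the dye swap of replicate 1. For those genes, Tyk2, Copz2 and Tlr2 among them, replicate 1 rested on 1 array and was not dye-balanced. The mean of an array and its swap gave each replicate's ratio, and the 2 replicate ratios were tested against 0 in limma (1 residual and 4.53 prior degrees of freedom, 2-sided, Benjamini-Hochberg over all genes). Each SD is that of the 2 replicate ratios, so it leaves out the gap between an array and its swap. Where several probes of a gene were kept, the brightest stood for it. Summed levels and normalized levels per RNA were taken after scaling average intensities between arrays (Aquantile). No spot was saturated (0 on each array). The fit was tested on simulated data.

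Of gene spots, 27041 were named from RefSeq and 16338 kept the file's name. The 6 members and 13 gene lists were chosen with earlier results of these data known, and so was the choice to fit normexp without the spots of non-uniform background. Named genes were the members, Lgr5 and Cd24a, the 3 largest called and the largest uncalled ratio per list, and the 5 genes nearest each member, with others named as such. Some genes stand in 2 lists.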

Additional observations from a re-analysis of the deposited data

Results flagged for a closer look

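Of 37 named genes with a value on all 4 arrays, 2 had 1 array far from the other 3, and no Reg gene was among them. The gap of the far array as a share of the whole range was 0.866 for Pigr and 0.833 for Scnn1a, past a limit that chance passes in about 1 of 20 such groups. With 37 genes looked at, chance alone could give 2. The limit also takes the 4 values as independent, while the arrays of a replicate share their RNAs. For Pigr the dye swap of replicate 1 gave a log2 ratio of -1.18 and the other arrays -0.11 to 0.06. For Scnn1a, a sodium channel gene of colonocytes, that dye swap gave 1.46 and the other arrays 2.79 to 3.06. In both genes the far array was the one on which 75.3% of gene spots were marked. That dye swap was also the far array for many named genes short of the limit, among them Cd24a (0.818), Muc2 (0.749) and Reg4 (0.292).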

How the results depend on the processing

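Over all genes, 6987 were called (3205 with ratios above 0, 3782 below). With normexp fitted on all spots 0 were called by limma (0 higher, 0 lower; 5335 at an unadjusted p under 0.05), and with marked spots kept 3827 (1488 higher, 2339 lower). Leaving out 1 array at a time gave 980 to 8543 calls, 498 to 3984 of them higher and 482 to 4559 lower, the fewest without the first array of replicate 1, where 6012 genes were tested. Median centring gave 2221 higher and 5434 lower. Reg4 lost its call with no background subtraction (2.02), with normexp on all spots (1.61), with marked spots kept (1.997) and with no filter on dim probes (2.08). Reg3g lost it with normexp on all spots (0.49), processed signals (0.54), the series table (0.55), median centring (0.33) and marked spots kept (0.43), and Reg1 with normexp on all spots (-0.85). The cause was not tested. No alternative turned the direction of Reg1, Reg3b, Reg3g or Reg4. With another probe of the same gene the sign turned for Cnnm4 (0.44, called), Ldb3 (0.053, not called) and Slc26a3 (0.47, called), and with the mean over kept probes for Cnnm4 (0.12, not called). With normexp on all spots it turned for Ctrb1 (0.024) and Extl3 (0.028), and for Ctrb1 also without the first array of replicate 2 (range -0.304 to 0.055 with 1 array left out). Extl3, Pyy, Sp5 and Zg16, none of them called, turned sign when a whole replicate was left out. Without the first array of replicate 1 neither Reg1 nor Reg3g had a value, and Reg1 had none when both RNAs had to be above background. Leaving out a whole replicate gave values with no test. Of the comparisons of alternatives with the main values for named genes outside the family, 101 lost the call, 17 gained it and 7 turned sign, beside the 4 without a replicate just named. Precision is limited by the 2 replicates, and for Reg1 by signal near background.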
